A study of Homo sapiens with 12 samples.

Results

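The histone genes of this RNA sequencing series were taken by name. They are the rows of the expression table whose gene names start with HIST1H, HIST2H, HIST3H or HIST4H, which are the replication-dependent genes, or with H2AF or H3F3, which are the variant genes, and whose mean over 12 libraries was at least 0.5 FPKM (fragments per kilobase of gene, scaled by a total for each library). Of 25733 genes in the table, 76 had such a name and 43 of these met the minimum. The 43 were 32 replication-dependent genes (2 for H1, 10 for H2A, 10 for H2B, 4 for H3 and 6 for H4) and 11 variant rows, of which 8 were coding genes and 3 were pseudogenes. Below the minimum lay 30 replication-dependent rows, 7 of them pseudogenes, and 3 variant rows. The members just above the minimum were HIST1H4A at 0.521 FPKM and HIST2H3D at 0.554 FPKM, and the rows just below it were HIST1H2BN at 0.495 FPKM and HIST1H3B at 0.490 FPKM.

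Histones are the proteins around which DNA is wound, with H2A, H2B, H3 and H4 in the core of the nucleosome and H1 on the linker between nucleosomes. Most replication-dependent histone genes lie in clusters, have no introns and are transcribed in S phase, and their mRNA usually ends in a stem-loop bound by the protein SLBP instead of a poly(A) tail. Variant histones are mostly made throughout the cell cycle from polyadenylated mRNA. They replace the replication-dependent proteins at particular places, such as H3.3 at active genes and H2A.X around DNA breaks.

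The cells were HCT116, an established human colon cancer line, and the 12 libraries fell into 4 groups of 3. Group C had no treatment, group T had TGF-β at 200 pM for 1 h, group N had NH4Cl at 10 mM for 24 h, and group NT had NH4Cl at 10 mM for 23 h followed by TGF-β at 200 pM for 1 h. Doses and times come from the study's methods, and replicate numbers 1 to 3 come from the sample labels, which do not say whether the replicates were separate cultures. Each library held between 14807630 and 18191998 reads on genes.

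The epithelial label was checked against marker genes. Of 7 colon epithelial markers, 6 were at or above 0.5 FPKM, with KRT18 the most abundant, and their summed level was 1859 to 2643 FPKM per library. The other cell type lists were far lower. The 4 endothelial markers summed to 1.58 to 6.84 FPKM, nearly all from VWF, with CDH5 at a mean of 0.240 FPKM and PECAM1 at 0.0348 FPKM. The 5 fibroblast markers summed to 7.87 to 10.9 FPKM, mostly from LUM, with DCN at a mean of 0.0208 FPKM. Of 5 leukocyte markers, 4 were in the table and summed to 0.880 to 2.95 FPKM, with CD3E at a mean of 0.158 FPKM.

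The 4 libraries of replicate 3 stood apart from the other 8, and this bears on every value given here. The percentage of reads on mitochondrial genes was 4.50 to 5.12 in replicate 3, and 2.46 to 3.18 in the others. The summed FPKM of all genes was 301728 to 305984 in replicate 3 and 262958 to 278920 in the other libraries. Dividing the library total that the deposited FPKM implies by the recovered gene reads gives 0.964 to 0.969 for replicate 3, against 1.02 to 1.03 for the remaining 8 libraries, so the scale itself differs along this division. P-values here measure only the spread between libraries, which may be technical replicates.

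Replication-dependent genes had lower FPKM than the variants in these libraries. How the RNA was selected is not stated, and most of these mRNAs lack a poly(A) tail, so the levels may not reflect the transcripts in the cells. The mean level of the 32 replication-dependent genes ran from 0.521 to 49.2 FPKM with a median of 1.26 FPKM, and 26 of them lay below 5 FPKM. In 12 of the 32 no library held 20 reads or more, and only 5 had at least 100 reads in every library. Those 5 were HIST1H2BK, HIST1H1C, HIST3H2A, HIST1H2BD and HIST1H2AC, which together made up 73.9% to 78.3% of the replication-dependent total. The 11 variant rows ran from 2.69 to 157 FPKM with a median of 50.01 FPKM, and 9 of them had at least 100 reads in every library.

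Summed over the 32 genes, the replication-dependent level was 219, 208, 243 and 233 FPKM in replicate 3 of C, T, N and NT, and 159 to 200 FPKM in replicates 1 and 2. As deposited, all 4 libraries of replicate 3 were above the other 8, with a ratio of the means of 1.26. As deposited, the summed level of the 8 coding variants was 593 to 627 FPKM in replicate 3. It was 581 to 641 FPKM in replicates 1 and 2, so these ranges overlapped. At equal library sums (TPM), the median log2 difference between replicate 3 and the rest was -0.19 for the 11 variant rows. It was -0.03 as deposited. For the 32 replication-dependent genes it was 0.11 in TPM and 0.21 as deposited. The replication-dependent share of the 2 FPKM sums does not depend on the scale. It was 25.8% to 28.8% in replicate 3 and 20.7% to 25.02% in the rest. As deposited, the class ratios of replicate 3 to replicates 1 and 2 were 1.36 for H1, 1.37 for H2A and 1.16 for H2B. They were 1.42 for H3 and 1.05 for H4. The summed FPKM of all genes was higher in replicate 3 too, at 301728 to 305984 against 262958 to 278920. These histone sums were not rescaled for it, so their separation and ratios hold on the deposited scale only. In bulk RNA, fewer cells that express a gene and less RNA of it per cell cannot be told apart.

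Against NH4Cl the class sums were ordered in another way. The H2A sum was higher in N than in C in 3 of 3 pairs of the same replicate number, and higher in NT than in T in 3 of 3. The H2B sum was higher in 3 of 3 and 2 of 3 such pairs, the H3 sum in 2 and 3, the H4 sum in 2 and 1, and the H1 sum in 0 and 1. The coding variant sum was higher with NH4Cl in 0 of 3 and 0 of 3 pairs, with means of 626 ± 14.1 FPKM in C, 589 ± 9.998 in N, 624 ± 26.8 in T and 603 ± 15.3 in NT (SD, n = 3). A pair here means only the same replicate number, and the correlations between libraries do not show that numbers 1 and 2 mark pairs. These sums are a description of the members and carry no test.

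**Figure D1:**
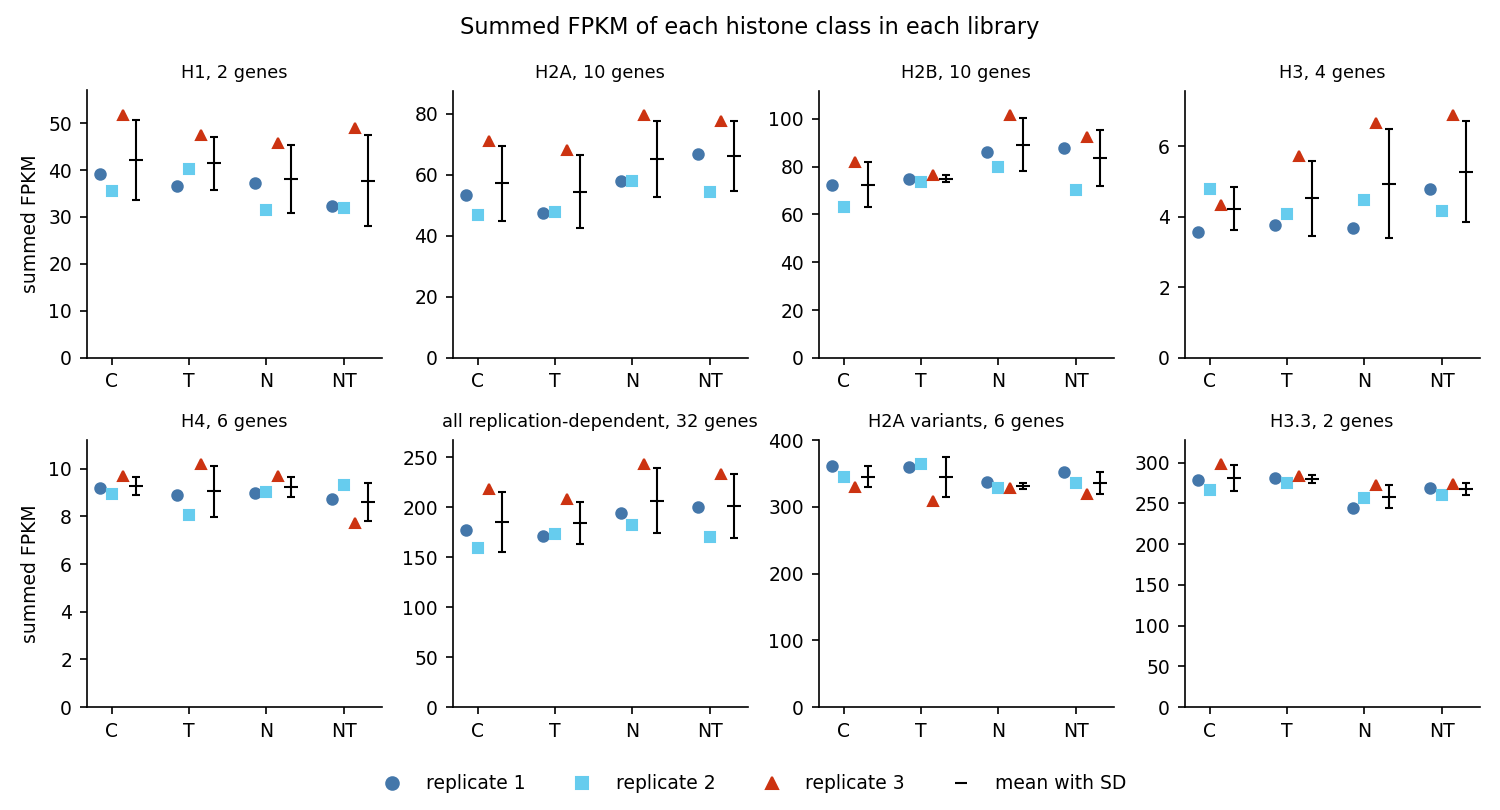
Summed FPKM of each histone class (vertical axis) in each library of the 4 groups (horizontal axis: C no treatment, T TGF-β, N NH4Cl, NT both). Symbols mark the replicate number, and the black bar is the group mean with its SD (n = 3). The replication-dependent total, not rescaled between libraries, is 208 to 243 FPKM in replicate 3 and 159 to 200 FPKM in the other libraries.

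The stem-loop that usually ends replication-dependent mRNA was looked for in the annotated transcripts. It is typical of these genes, and the sequence shows which gene models run past it. The search took a stem of 6 paired bases that starts with GG and a loop of 4 bases that starts with TT. In the members it was made after the stop codon on the sense strand. It matched 17 of the 32 replication-dependent members. Searched over whole transcripts, not only after the stop, 79 of 11750 protein-coding genes tested had a match, or 0.672%. These 79 include the 17 members. In 10 members the annotated transcript ends with the coding sequence, so that nothing after the stop could be searched. The distance from the stop codon to the stem-loop was 26 to 67 bases, with a median of 36.

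Among the 17 replication-dependent members with a match, 11 genes carried the same 16 bases and 3 carried a form with another base in the loop. The H4 genes had forms with another stem. A site is given for each form and for the members with the clearest differences between replicates, with the stem and loop in capitals and 5 bases on each side, read 5′ to 3′ on the gene's strand in GRCh38. The sites are chr6:26124664-26124689 (plus strand) for HIST1H2AC, chr1:228457364-228457389 (minus) for HIST3H2A, chr1:149886183-149886208 (minus) for HIST2H2BE, chr6:26158582-26158607 (plus) for HIST1H2BD, chr12:14770719-14770744 (minus) for HIST4H4, and chr6:27139649-27139674 (plus) for HIST1H4I. The variant H2AFX, a gene whose protein is phosphorylated at DNA breaks, also had a match, at chr11:119094893-119094918 (minus).
HIST1H2AC: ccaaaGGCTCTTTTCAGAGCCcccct
HIST3H2A: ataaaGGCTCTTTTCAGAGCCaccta
HIST2H2BE: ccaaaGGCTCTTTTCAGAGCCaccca
HIST1H2BD: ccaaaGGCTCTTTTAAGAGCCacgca
HIST4H4: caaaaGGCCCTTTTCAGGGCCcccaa
HIST1H4I: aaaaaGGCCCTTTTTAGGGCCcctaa
H2AFX: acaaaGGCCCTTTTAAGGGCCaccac

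Between replicate 3 and replicates 1 and 2, with the group as a covariate, 12 of the 32 replication-dependent genes were higher and 2 were lower. Of all 14357 genes tested with limma, 53.4% passed an adjusted p of 0.05, 26.6% as higher and 26.8% as lower, so the share of higher members was 37.5% against 26.6% and that of lower members 6.25% against 26.8%. The median log2 difference was 0.21 for the replication-dependent genes, -0.03 for the 11 variant rows and -0.01 for all genes. Of the variant rows, 3 were higher and 4 were lower. Between replicates 2 and 1 limma called 0 of the 43 members, and 0% of all genes, with 3 members at an unadjusted p under 0.05 and 0 called by voom.

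The scale of the libraries matters for this comparison. Scaling every library to the same sum (TPM) moved the median of all genes from -0.01 to -0.13, with 1967 genes higher and 6856 lower in place of 3819 and 3853. Relative to that median, the replication-dependent genes stood at 0.21 as deposited and at 0.24 in TPM. In TPM 10 replication-dependent genes were higher and 3 lower, and of the variant rows 1 was higher and 7 were lower. With limma-voom on the recovered reads, 11 replication-dependent genes were higher and 2 lower, and 2 variant rows were higher and 4 lower, against 27.6% of all genes higher and 28.4% lower.

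Of the 2 replication-dependent linker histone genes, HIST1H1C (H1.2) made up nearly all of the signal. It read 50.2, 45.6, 44.2 and 48.1 FPKM in replicate 3 of C, T, N and NT, and 31.0 to 38.8 FPKM (median 34.3) in the 8 other libraries. All of its replicate 3 values were above all others, and the log2 difference was 0.45 ± 0.05 (SE, adjusted p = 8.28e-05). HIST1H1E, with 5 to 31 reads per library, read 0.781 to 1.92 FPKM in replicate 3 and 0.406 to 2.66 FPKM elsewhere, and did not pass the test (adjusted p = 0.574).

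Among the H2A genes, the most abundant was HIST3H2A on chromosome 1. It read 40.3, 38.1, 45.5 and 47.0 FPKM in replicate 3 of C, T, N and NT, and 22.5 to 41.3 FPKM (median 31.4) in the other libraries. Replicate 3 was the highest library in each of the 4 groups, with a log2 difference of 0.49 ± 0.08 (adjusted p = 0.000482). HIST1H2AC had the largest rise of any member on the scale of log2(FPKM + 1), which shrinks low values, while 4 members had a larger ratio of means than HIST1H2AC (1.64), namely HIST3H2BB (2.21), HIST2H3D (1.74, not past the threshold), HIST1H2BC (1.70) and HIST1H2BF (1.69). With means of 0.774 FPKM in replicate 3 and 0.444 FPKM elsewhere, HIST2H3D met the minimum only through the libraries where it is high. HIST1H2AC values were 17.1, 14.2, 19.95 and 18.1 FPKM in replicate 3 and 9.26 to 12.1 FPKM (median 10.6) elsewhere, without overlap, a log2 difference of 0.66 ± 0.05 (adjusted p = 9.2e-06).

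A further H2A gene, HIST1H2AG, was higher by 0.17 ± 0.06 (adjusted p = 0.0363), from 1.14 to 2.12 FPKM (median 1.39) to 1.47 to 2.15 FPKM. The 2 lower members are H2A genes with few reads. HIST1H2AI, with 2 to 15 reads per library, read 0.805, 0.684, 0.825 and 0.234 FPKM in replicate 3 against 0.621 to 1.76 FPKM (median 1.18), a log2 difference of -0.46 ± 0.09 (adjusted p = 0.00223). HIST1H2AL, with 1 to 14 reads, read 0.172, 0.350, 0.176 and 0.599 FPKM in replicate 3 against 0.335 to 1.92 FPKM (median 1.17), a difference of -0.60 ± 0.19 (adjusted p = 0.0254). It overlaps HIST1H2BN on the same strand, so its values are uncertain, and with means of 0.324 FPKM in replicate 3 and 1.05 FPKM elsewhere HIST1H2AL met the minimum only through the libraries where it is high. HIST2H2AA3 and HIST2H2AA4 are near-identical copies whose reads the counting could split, and neither passed the test.

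The H2B genes held the largest number of rises, 7 of 10. HIST2H2BE read 4.58, 5.08, 7.47 and 6.82 FPKM in replicate 3 of C, T, N and NT, and 2.63 to 4.95 FPKM (median 3.48) elsewhere. Its replicate 3 library was the highest of its group in all 4 groups, with a log2 difference of 0.58 ± 0.08 (adjusted p = 0.000221). HIST1H2BJ read 4.69, 5.50, 7.65 and 7.32 FPKM against 3.37 to 5.20 FPKM (median 3.77), a difference of 0.57 ± 0.09 (adjusted p = 0.000605).

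HIST1H2BD read 16.6, 15.2, 21.9 and 20.3 FPKM in replicate 3 and 8.69 to 14.9 FPKM (median 12.5) in the other libraries. These ranges did not overlap, and the log2 difference was 0.53 ± 0.08 (adjusted p = 0.000297). HIST3H2BB, HIST1H2BG, HIST1H2BC and HIST1H2BF were higher by 0.50, 0.45, 0.45 and 0.31 at levels of at most 3.88 FPKM. The most abundant replication-dependent gene did not follow them. HIST1H2BK read 46.6, 42.2, 55.2 and 49.0 FPKM in replicate 3 and 42.2 to 56.9 FPKM (median 48.5) elsewhere, a difference of -0.04 ± 0.05 (adjusted p = 0.478), and in TPM it was lower at -0.21 (adjusted p = 0.00142).

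Of 4 H3 genes, HIST1H3E passed the test. It read 1.39, 2.44, 2.40 and 1.98 FPKM in replicate 3 and 1.08 to 1.69 FPKM (median 1.30) in the other libraries, a difference of 0.37 ± 0.07 (adjusted p = 0.00219). Replicate 3 was its highest library in each group, although the value in C lay within the range of the others. The 6 H4 genes gave 0 calls in limma and in voom, with 0 at an unadjusted p under 0.05 in limma. The most abundant of them, HIST1H4I, read 4.43, 5.32, 5.72 and 4.96 FPKM in replicate 3 and 4.02 to 5.97 FPKM (median 5.13) elsewhere.

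The H2A variants divided by direction. H2AFJ, the gene of H2A.J, which is known to build up in senescent cells, read 32.3, 31.3, 35.2 and 33.7 FPKM in replicate 3 and 23.9 to 28.8 FPKM (median 26.1) elsewhere. It was above every other library and higher by 0.32 ± 0.03 (adjusted p = 2.11e-05), and it was the variant that remained higher in TPM, at 0.16 (adjusted p = 0.000837). H2AFZ, the gene of H2A.Z found near transcription start sites, read 112, 102, 118 and 114 FPKM in replicate 3 and 122 to 132 FPKM (median 128) elsewhere. Its replicate 3 values were below all others, with a difference of -0.19 ± 0.04 (adjusted p = 0.00312).

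The macroH2A genes were lower too. H2AFY (macroH2A1) read 23.5, 23.7, 21.9 and 21.2 FPKM against 26.4 to 28.3 FPKM (median 27.6), a difference of -0.26 ± 0.03 (adjusted p = 3.5e-05) with no overlap. H2AFY2 (macroH2A2) read 27.8, 27.3, 24.7 and 24.2 FPKM against 26.3 to 34.3 FPKM (median 30.8), a difference of -0.21 ± 0.04 (adjusted p = 0.000691). H2AFX read 85.0, 76.8, 78.5 and 77.5 FPKM against 76.7 to 95.3 FPKM (median 85.5), a difference of -0.11 ± 0.04 (adjusted p = 0.0481). H2AFV, the other H2A.Z gene, did not pass the test at -0.07 ± 0.03 (adjusted p = 0.0688), and in TPM it was lower at -0.23 (adjusted p = 3.37e-05).

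Both H3.3 genes encode the same protein. H3F3B read 170, 163, 149 and 157 FPKM in replicate 3 and 130 to 151 FPKM (median 142) elsewhere, a difference of 0.17 ± 0.02 (adjusted p = 0.000203) that became 0.00 in TPM (adjusted p = 0.971). H3F3A read 128, 121, 124 and 117 FPKM against 114 to 132 FPKM (median 125), with no call, and in TPM it was lower at -0.19 (adjusted p = 0.000313). The processed pseudogenes H3F3AP4, at a mean of 157 FPKM, and H3F3AP6, at 17.4 FPKM, are near-identical copies of it, so the split of reads among the 3 rows is uncertain. H3F3AP6 was higher by 0.16 ± 0.06 (adjusted p = 0.0498), and in TPM the difference was 0.00. H2AFY, H2AFY2, H2AFZ, H3F3A, H3F3B and H2AFVP1 overlap other genes, and the strand of the counting is not stated.

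Calls with an adjusted p near 0.05 did not survive the loss of single libraries. HIST1H2AG lost its call without replicate 2 of C, T or NT, replicate 3 of C, T, N or NT, or replicate 1 of T or N, with adjusted p up to 0.124. HIST1H2BF lost it without C replicate 2, C replicate 3, N replicate 1 or any NT library (up to 0.131), and HIST1H2AL without C, T or N replicate 3 (up to 0.107). H2AFX lost it without any library of C, T or NT or without N replicate 1 (up to 0.181). H3F3AP6 lost it without any library of C or N, T replicate 2, NT replicate 1 or NT replicate 3 (up to 0.217). Without C, T or N replicate 3 the count of lower replication-dependent genes was therefore 1. In TPM, HIST1H2AG and HIST1H2BF did not pass the test (adjusted p = 0.369 and 0.0645).

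**Figure D2:**
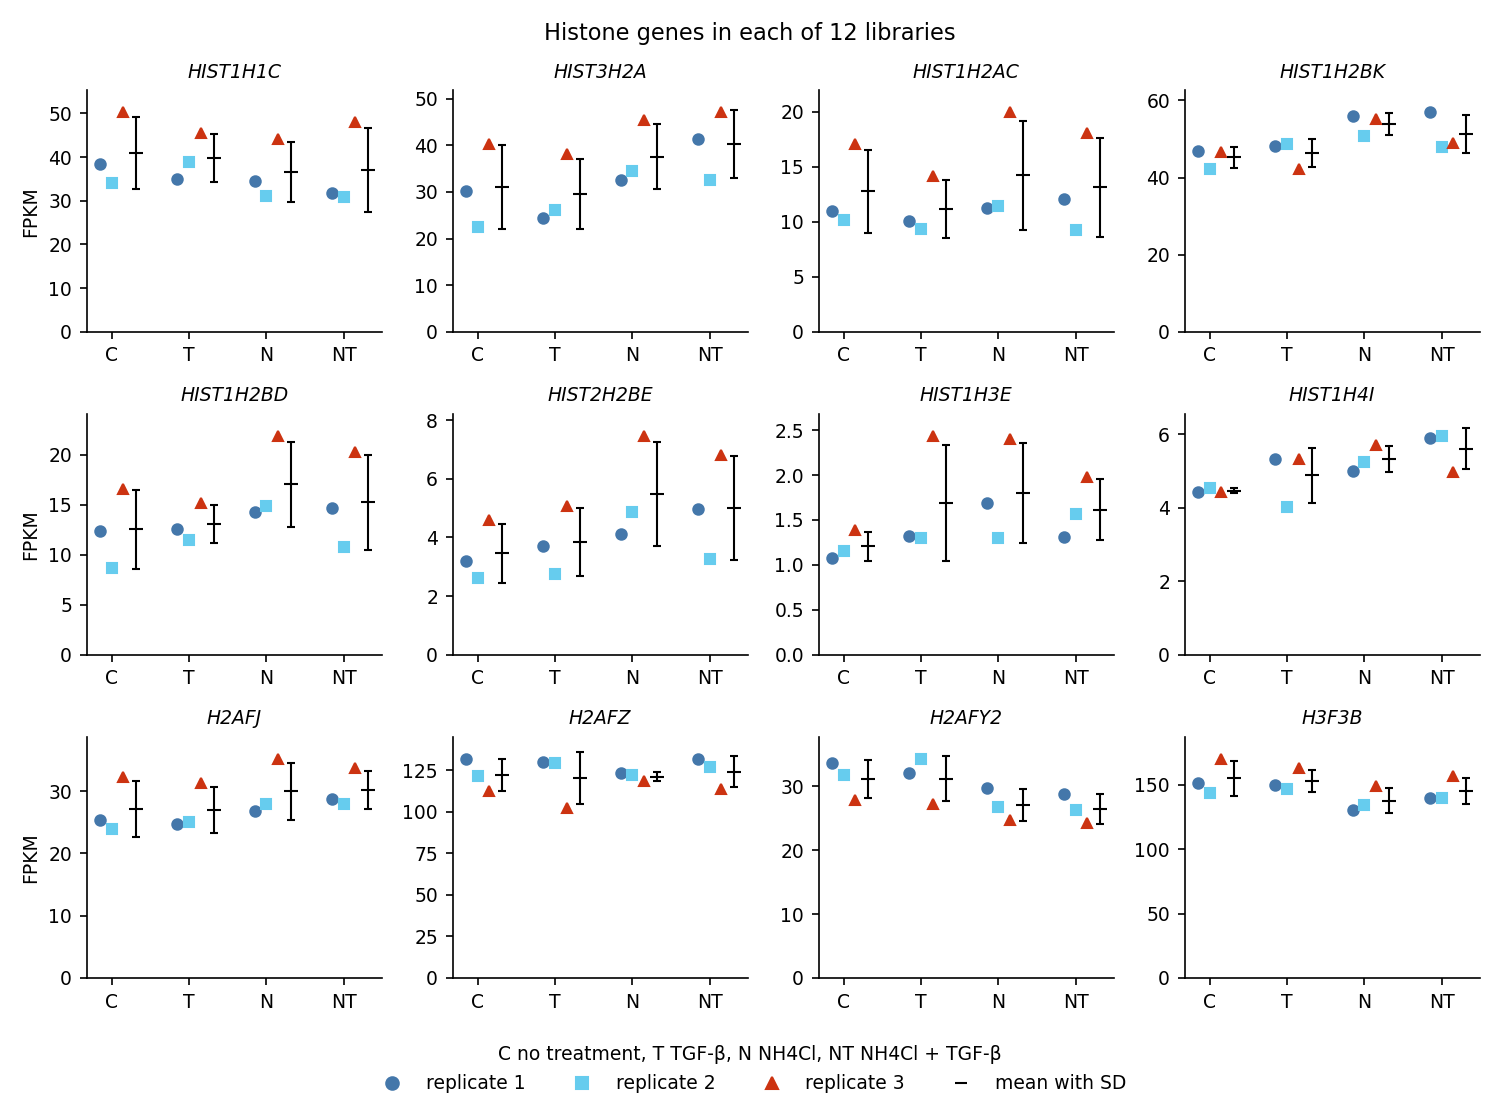
FPKM of 12 histone genes (vertical axes, each starting at 0) in every library of the 4 groups (C no treatment, T TGF-β, N NH4Cl, NT both), with symbols for the replicate number and black bars for the group mean and SD (n = 3). In HIST1H2AC the replicate 3 libraries sit between 14.2 and 19.95 FPKM and the others between 9.26 and 12.1 FPKM, while in H2AFZ they sit below all others.

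The genes that rose in replicate 3 mostly had annotated transcripts that run far past the stop codon. Of 18 replication-dependent genes with a transcript of more than 100 bases after the stop, 11 were higher and 0 lower, with a median difference of 0.34. Of the other 14, 1 was higher (HIST1H1C) and 2 were lower, with a median of 0.05. Of all genes, 26.6% were higher and 26.8% lower. At a limit of 200 bases the counts of higher genes were 11 of 15 and 1 of 17. For HIST1H2AC the longest transcript has 1173 bases after the stop, for HIST2H2BE 1801 and for HIST3H2BB 1960, and the stem-loop lies 43, 56 and 27 bases after the stop. This division was chosen after the values were seen, longer models also collect more reads, and it carries no test.

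**Figure D3:**
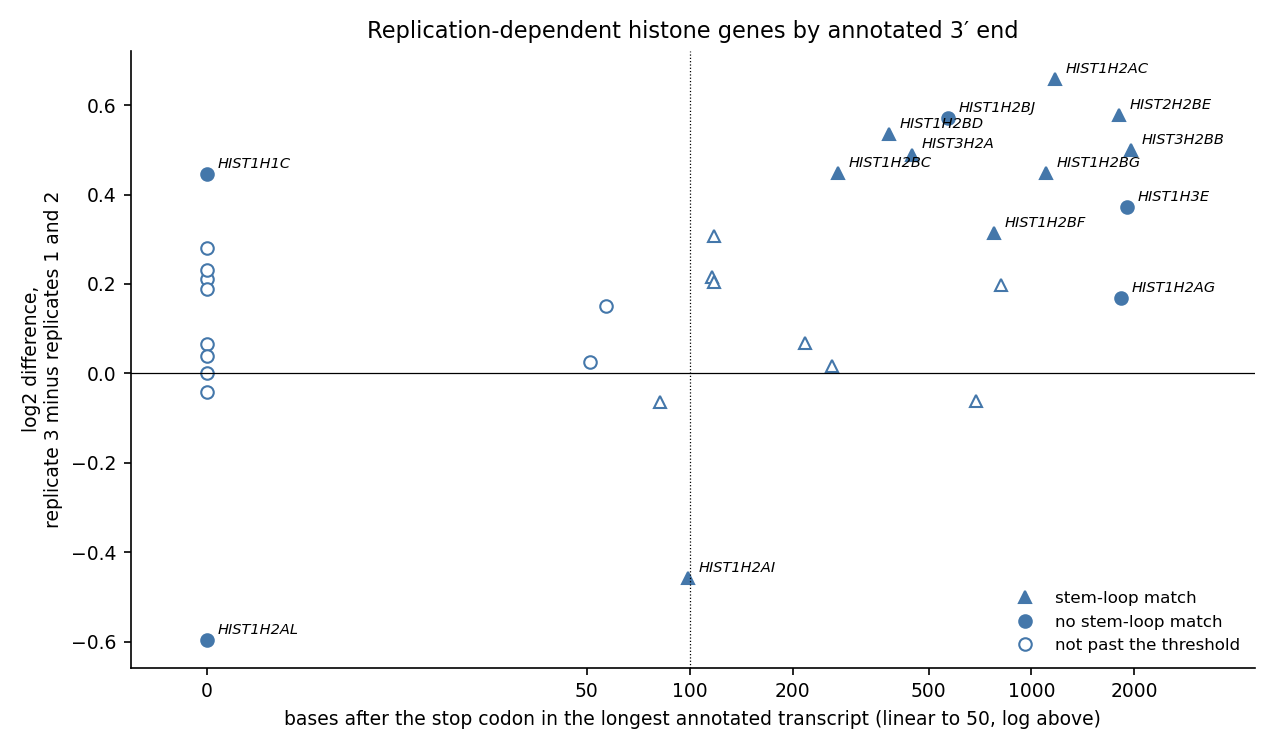
Log2 difference of replicate 3 from replicates 1 and 2 (vertical axis) against the bases after the stop codon in the longest annotated transcript of each of the 32 replication-dependent genes (horizontal axis, linear to 50 and logarithmic above). Filled symbols passed an adjusted p of 0.05, triangles have a stem-loop match, and the dotted line marks 100 bases. Right of it 11 of 18 genes are higher, against 26.6% of all genes.

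A list of 5 replication-dependent genes known to make polyadenylated mRNA as well (HIST1H1C, HIST1H2AC, HIST1H2BD, HIST1H2BK and HIST2H2BE) had 4 higher and 0 lower, with a median of 0.53. That is 80% higher, against 37.5% of the 32 replication-dependent genes and 26.6% of all genes. All of the list but HIST2H2BE are among the 5 replication-dependent genes with at least 100 reads in every library. In 12 of the 32 no library held 20 reads or more. The list thus also differs from the rest in read depth, and the contrast carries no test. How the RNA was selected is not stated in the labels or the methods. The methods head this part as total RNA sequencing and describe isolation of total RNA, without naming a selection step. Of 15 RNAs known to lack a poly(A) tail, 4 were in the table and 2 were above the minimum. RN7SL2, part of the signal recognition particle, read 173, 157, 126 and 133 FPKM in replicate 3 and 60.0 to 109 FPKM (median 92.3) elsewhere, a difference of 0.68 ± 0.12 (adjusted p = 0.00128). RNU5A-1 was at a mean of 0.543 FPKM and did not pass. The part of RNA selection in the histone differences was not tested.

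Histone genes are often paired head to head, and 6 such pairs of members had start sites under 1 kb apart, at 219 to 323 bases. In 3 pairs both genes were higher in replicate 3, namely HIST1H2BJ with HIST1H2AG, HIST1H2BC with HIST1H2AC, and HIST3H2A with HIST3H2BB. In HIST2H2BE with HIST2H2AC and HIST1H2BG with HIST1H2AE the H2B gene alone passed the test. In HIST1H2BL with HIST1H2AI the H2A gene was lower and the other did not pass.

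Promoter windows of 300 bases from RefSeq (GRCh38.p14) were found for 38 members, 30 of them replication-dependent. The motif TATAAA, on either strand, was in 23 of 30 replication-dependent promoters and 3 of 8 variant promoters, against 11.95% of 27305 promoters. The motif CCAAT, on either strand, was in 27 of 30 and 6 of 8, against 35.7%. The windows of the head-to-head pairs overlap, so a motif on either strand can count for both genes. In HIST1H2BC and HIST1H2AE the only TATAAA match is on the opposite strand, in the stretch shared with the partner gene. The windows of HIST2H2AA3 and HIST2H2AA4 are near-identical as well, so these counts are not of separate stretches. These letters are a description and not evidence of binding. The windows of 3 members with clear rises in replicate 3 are shown with any match to either motif in capitals (HIST3H2A has CCAAT alone), at chr6:26123922-26124221 (plus strand) for HIST1H2AC, chr1:228457824-228458123 (minus) for HIST3H2A and chr1:149886633-149886932 (minus) for HIST2H2BE.
HIST1H2AC: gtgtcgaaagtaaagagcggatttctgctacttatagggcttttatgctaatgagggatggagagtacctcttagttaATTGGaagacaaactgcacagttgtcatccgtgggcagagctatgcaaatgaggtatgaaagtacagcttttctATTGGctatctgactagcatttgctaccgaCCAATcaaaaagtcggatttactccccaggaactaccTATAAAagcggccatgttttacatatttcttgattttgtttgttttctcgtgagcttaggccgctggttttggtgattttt
HIST3H2A: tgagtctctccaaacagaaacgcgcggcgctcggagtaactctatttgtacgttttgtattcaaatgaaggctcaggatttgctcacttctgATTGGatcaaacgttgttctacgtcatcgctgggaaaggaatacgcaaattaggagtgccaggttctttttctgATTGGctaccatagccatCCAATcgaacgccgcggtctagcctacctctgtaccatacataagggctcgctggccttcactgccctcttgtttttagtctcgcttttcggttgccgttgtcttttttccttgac
HIST2H2BE: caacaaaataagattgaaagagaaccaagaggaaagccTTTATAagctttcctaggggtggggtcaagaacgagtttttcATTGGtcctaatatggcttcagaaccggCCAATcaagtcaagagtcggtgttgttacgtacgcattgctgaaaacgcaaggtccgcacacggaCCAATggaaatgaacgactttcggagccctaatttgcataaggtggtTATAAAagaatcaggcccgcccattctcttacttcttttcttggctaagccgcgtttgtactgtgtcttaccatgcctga

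Genes of S phase and genes that process or place histones were mostly lower in replicate 3. Of 25 S phase genes, 21 were lower and 0 higher, with a median of -0.66. That is 84% lower, while of all genes 26.8% were lower and 26.6% higher. PCNA, the sliding clamp of DNA polymerase, read 124, 108, 118 and 103 FPKM in replicate 3 and 188 to 215 FPKM (median 202) elsewhere, a difference of -0.83 ± 0.04 (adjusted p = 6.28e-07). MCM4, a subunit of the replicative helicase, had the largest fall of the list at -0.89 ± 0.04 (adjusted p = 2.24e-07).

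Of 16 genes for transcription and processing of histone mRNA, 12 were lower and 1 higher, with a median of -0.17. These shares were 75% and 6.25%, against 26.8% and 26.6% of all genes. SLBP, which binds the stem-loop, read 34.6, 31.2, 34.8 and 31.1 FPKM in replicate 3 and 38.6 to 42.7 FPKM (median 40.7) elsewhere. It was below all other libraries, with a difference of -0.29 ± 0.04 (adjusted p = 0.000199). SRRT (ARS2), which links capped RNA to 3′ end processing, was lower by -0.46 ± 0.03 (adjusted p = 8.83e-07), and HINFP, a transcription factor of H4 genes, was higher by 0.23 ± 0.06 (adjusted p = 0.00544), although in TPM 0 genes of this list were higher and 14 lower. NPAT, the coactivator of histone transcription in S phase, did not pass the test at -0.07 (adjusted p = 0.159).

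Of 20 histone chaperones, 19 were tested, and 13 were lower and 2 higher, with a median of -0.20. These shares were 68.4% and 10.5%, against 26.8% and 26.6% of all genes. CHAF1A, a subunit of the factor that places H3 and H4 behind the replication fork, was lower by -0.68 ± 0.05 (adjusted p = 4.27e-06). HJURP, the chaperone of CENPA, was higher by 0.52 ± 0.05 (adjusted p = 2.12e-05), and NAP1L1 was higher by 0.09 ± 0.03 (adjusted p = 0.0362). Without any library of C or N, NT replicate 2 or NT replicate 3, the count of higher chaperones was 1.

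Variants outside the naming rule were higher. H1F0, the linker histone of cells that have stopped dividing, read 411, 427, 460 and 496 FPKM in replicate 3 and 225 to 258 FPKM (median 237) elsewhere. It was above all other libraries, with a difference of 0.91 ± 0.03 (adjusted p = 8.26e-08). H1FX was higher by 0.53 ± 0.03 and CENPA, the centromeric H3, by 0.21 ± 0.04, and in TPM 2 of these 3 genes were higher. Of all genes, 26.6% were higher and 26.8% lower as deposited, while in TPM more were lower than higher, as given above. Of 16 G2/M genes, 8 were higher and 3 lower with a median of 0.09, against 0 and 8 in TPM, so their direction depends on the scale. Without N replicate 3 the counts of that list were 4 and 5, and without NT replicate 3 there were 5 higher.

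**Figure D4:**
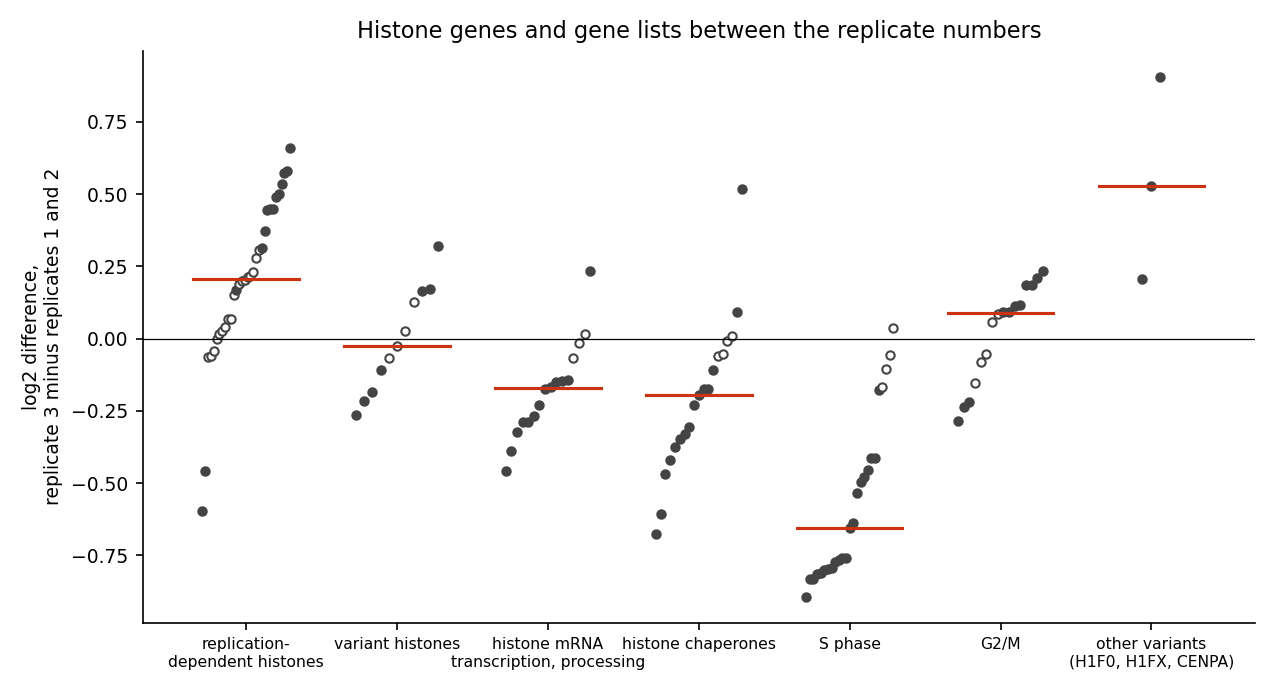
Log2 difference of replicate 3 from replicates 1 and 2 for each gene (vertical axis) of the histone groups and the gene lists (horizontal axis). Filled points passed an adjusted p of 0.05, and the red line is the median of the list, at 0.21 for the replication-dependent genes and -0.66 for the S phase genes.

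Marker genes of other kinds also moved with replicate 3. Of 6 colon epithelial markers tested, 3 were higher (KRT18 by 0.50, KRT8 by 0.38 and CDH1 by 0.35), and VWF was higher by 0.99. The epithelial shares were 50% higher and 0% lower, against 26.6% and 26.8% of all genes. COL1A1 was higher by 0.41 and LYZ was at -0.62, both at 2.62 FPKM or less in every library. In TPM the 6 epithelial markers were 3 higher and 3 lower, where more of all genes were lower than higher, as given above. The epithelial sum was 2336 to 2643 FPKM in replicate 3 and at most 2031.6 FPKM elsewhere. The part of these genes, of the mitochondrial share and of the summed FPKM in the histone differences was not tested.

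The treatment comparisons ask what NH4Cl and TGF-β do to the histone genes of these cells. Without a block for the replicate number, limma called 0 of the 43 members between NH4Cl and no treatment, where 0.327% of all genes were called, with 4 members at an unadjusted p under 0.05 and 0 called by voom. Between NH4Cl with TGF-β and TGF-β alone limma called 0 members against 0.634% of all genes, with 2 at an unadjusted p under 0.05 and 0 by voom. Between NH4Cl with TGF-β and no treatment limma called 0 members against 0.613% of all genes, with 4 at an unadjusted p under 0.05 and 0 by voom. The comparisons with group C share its libraries, and those with group NT share theirs, so they are not independent of each other.

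The replicate block takes up the difference between replicate 3 and the other libraries, and pairing by number within replicates 1 and 2 was not shown. With it, limma called some members between NH4Cl and no treatment, 7 of 43 or 16.3% against 11.3% of all genes. The higher members were 3 H2B genes and 1 H2A gene, and the lower ones 1 H4 gene and 2 variants. The median log2 difference was 0.09 for the replication-dependent genes, -0.08 for the variants and -0.000861 for all genes. Leaving out 1 library moved the replication-dependent median from -0.0070 (without C replicate 1) to 0.20 (without N replicate 2), so its sign is not stable. HIST2H2BE read 3.20, 2.63 and 4.58 FPKM in C replicates 1 to 3 and 4.10, 4.88 and 7.47 FPKM in N. It was higher in N in 3 of 3 pairs while the group ranges overlapped, with a log2 difference of 0.53 ± 0.11 (adjusted p = 0.0146 with the replicate block).

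HIST1H2BD read 12.3, 8.69 and 16.6 FPKM in C and 14.3, 14.9 and 21.9 FPKM in N, higher in 3 of 3 pairs by 0.43 ± 0.10 (adjusted p = 0.0276 with the replicate block). HIST1H2BK read 47.0, 42.2 and 46.6 FPKM in C and 55.9, 50.8 and 55.2 FPKM in N. Every N value of HIST1H2BK was above every C value, with a difference of 0.25 ± 0.06 (adjusted p = 0.0336 with the replicate block). HIST1H2AG read 1.39, 1.16 and 1.68 FPKM in C and 1.64, 2.12 and 2.15 FPKM in N, a difference of 0.30 ± 0.08 (adjusted p = 0.0395 with the replicate block).

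The members lower with NH4Cl under the replicate block were HIST1H4A, H2AFY2 and H3F3B. HIST1H4A had 0 to 6 reads per library and read 1.14, 0.933 and 0.865 FPKM in C against 0.415, 0 and 0.222 FPKM in N, a difference of -0.72 ± 0.20 (adjusted p = 0.0494). With means of 0.978 and 0.620 FPKM in C and T and of 0.212 and 0.273 FPKM in N and NT, HIST1H4A met the minimum only through the groups without NH4Cl, a choice that favours this direction. H2AFY2 read 33.6, 31.8 and 27.8 FPKM in C and 29.7, 26.8 and 24.7 FPKM in N, lower in 3 of 3 pairs by -0.19 ± 0.05 (adjusted p = 0.0308). H3F3B read 151, 144 and 170 FPKM in C and 130, 134 and 149 FPKM in N, lower in 3 of 3 pairs by -0.17 ± 0.03 (adjusted p = 0.0096). With voom and the block, 9 of 43 members were called, 5 replication-dependent genes higher and 0 lower, and 1 variant higher and 3 lower, so HIST1H4A lost its call. That is 20.9% of members against 16.5% of all genes.

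Each of these calls with the replicate block was lost without at least 1 library. HIST2H2BE lost its call without any C library or N replicate 2 (adjusted p up to 0.0581), and HIST1H2BD without any C library, N replicate 2 or N replicate 3 (up to 0.120). HIST1H2BK lost it without C replicate 1, C replicate 2, T replicate 1 or any N library (up to 0.131). HIST1H2AG kept it only without N replicate 1 or NT replicate 1 (otherwise up to 0.153), and HIST1H4A only without N replicate 1, NT replicate 1 or NT replicate 2 (otherwise up to 0.189). H2AFY2 lost it without any library of C or N (up to 0.136) and H3F3B without C replicate 1 (0.053). Higher replication-dependent genes numbered 0 without C replicate 1 or C replicate 2, 1 without C replicate 3, N replicate 2 or N replicate 3, and 2 without T replicate 1. Lower variants numbered 0 without C replicate 1 and 1 without any other library of C or N, and without NT replicate 3 there was 1 higher variant. The count over all genes fell too, from 892 higher to 438, 372 and 502 without C replicate 1, 2 and 3, to 462, 354 and 708 without N replicate 1, 2 and 3, and to 768 without T replicate 1. In replicates 1 and 2 alone and without a block, 1 of 43 members was called, or 2.33% against 7.95% of all genes.

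Between NH4Cl with TGF-β and TGF-β alone, 3 of 43 members passed with the replicate block, or 6.98% against 15.8% of all genes. HIST3H2A read 24.4, 26.2 and 38.1 FPKM in T replicates 1 to 3 and 41.3, 32.6 and 47.0 FPKM in NT. It was higher in 3 of 3 pairs by 0.45 ± 0.10 (adjusted p = 0.0189), and in no treatment against NH4Cl alone its values went from 30.3, 22.5 and 40.3 FPKM to 32.6, 34.5 and 45.5 FPKM without a call (adjusted p = 0.102). H2AFJ was higher in 3 of 3 pairs by 0.16 ± 0.04 (adjusted p = 0.0304), from 24.8, 25.1 and 31.3 FPKM to 28.8, 28.0 and 33.7 FPKM. H2AFY2 was lower in 3 of 3 pairs by -0.23 ± 0.05 (adjusted p = 0.0127), from 32.03, 34.3 and 27.3 FPKM to 28.9, 26.3 and 24.2 FPKM.

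With the replicate block, HIST3H2A lost this call without T replicate 1 or NT replicate 1 (adjusted p up to 0.078), and H2AFY2 without NT replicate 2 (0.0572). H2AFJ lost it without any T library, NT replicate 1 or NT replicate 2 (up to 0.109). Higher replication-dependent genes numbered 2 without T replicate 2, N replicate 1 or NT replicate 2, there was 1 lower without N replicate 2, and lower variants numbered 2 without T replicate 3. Over all genes the count of 1262 higher was 654 to 1274 in these fits. With voom and the block there were 2 higher replication-dependent genes, and 1 variant higher and 1 lower, in all 9.30% of members against 21.7% of all genes. The interaction of NH4Cl and TGF-β, which tests whether the response to NH4Cl differed with TGF-β, called 0 members and 0% of all genes in limma without a block and 0 members and 0% with the replicate block. At an unadjusted p under 0.05 there were 1 member without and 4 with the replicate block, and voom called 0 in both.

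Between NH4Cl with TGF-β and no treatment, 5 of 43 members passed with the replicate block, or 11.6% against 15.7% of all genes. HIST2H2BE at 0.41 ± 0.11 (adjusted p = 0.0314), HIST3H2A at 0.39 ± 0.10 (adjusted p = 0.0314) and H2AFJ at 0.15 ± 0.04 (adjusted p = 0.0341) were higher. H2AFY2 at -0.22 ± 0.05 (adjusted p = 0.0132) and HIST1H2AI at -0.53 ± 0.12 (adjusted p = 0.0196) were lower. With voom and the block 0 replication-dependent genes were lower and 2 were higher, so HIST1H2AI, with 2 to 15 reads per library, lost its call, and 9.30% of members were called against 21.5% of all genes. Each lost its call without some libraries: HIST2H2BE without any C library, NT replicate 1 or NT replicate 3, HIST3H2A without C replicate 2, C replicate 3, NT replicate 1 or NT replicate 2, and H2AFJ without any C library, T replicate 1, NT replicate 1 or NT replicate 2. For H2AFY2 these were C replicate 1, C replicate 2 and NT replicate 2, and for HIST1H2AI C replicate 1, NT replicate 1 and NT replicate 3, with adjusted p of at most 0.151 among the 5 genes. Without T replicate 2 there were 4 higher replication-dependent genes, without N replicate 1, N replicate 2 or NT replicate 2 there were 2 lower, and without T replicate 3 there were 2 lower variants. Over all genes the count of 1302 higher was 653 to 1337 in these fits.

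TGF-β for 1 h gave no call among the histone genes. Between TGF-β and no treatment limma called 0 of 43 members and 0% of all genes without a block, with 2 members at an unadjusted p under 0.05 and 0 called by voom. With the replicate block it called 0 members against 0.00697% of all genes, with 6 members at an unadjusted p under 0.05 and 0 called by voom. Between NH4Cl with TGF-β and NH4Cl alone limma called 0 members and 0% of all genes without a block, with 1 member at an unadjusted p under 0.05 and 0 called by voom. With the replicate block it again called 0 members and 0% of all genes, with 4 members at an unadjusted p under 0.05 and 0 called by voom.

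**Figure D5:**
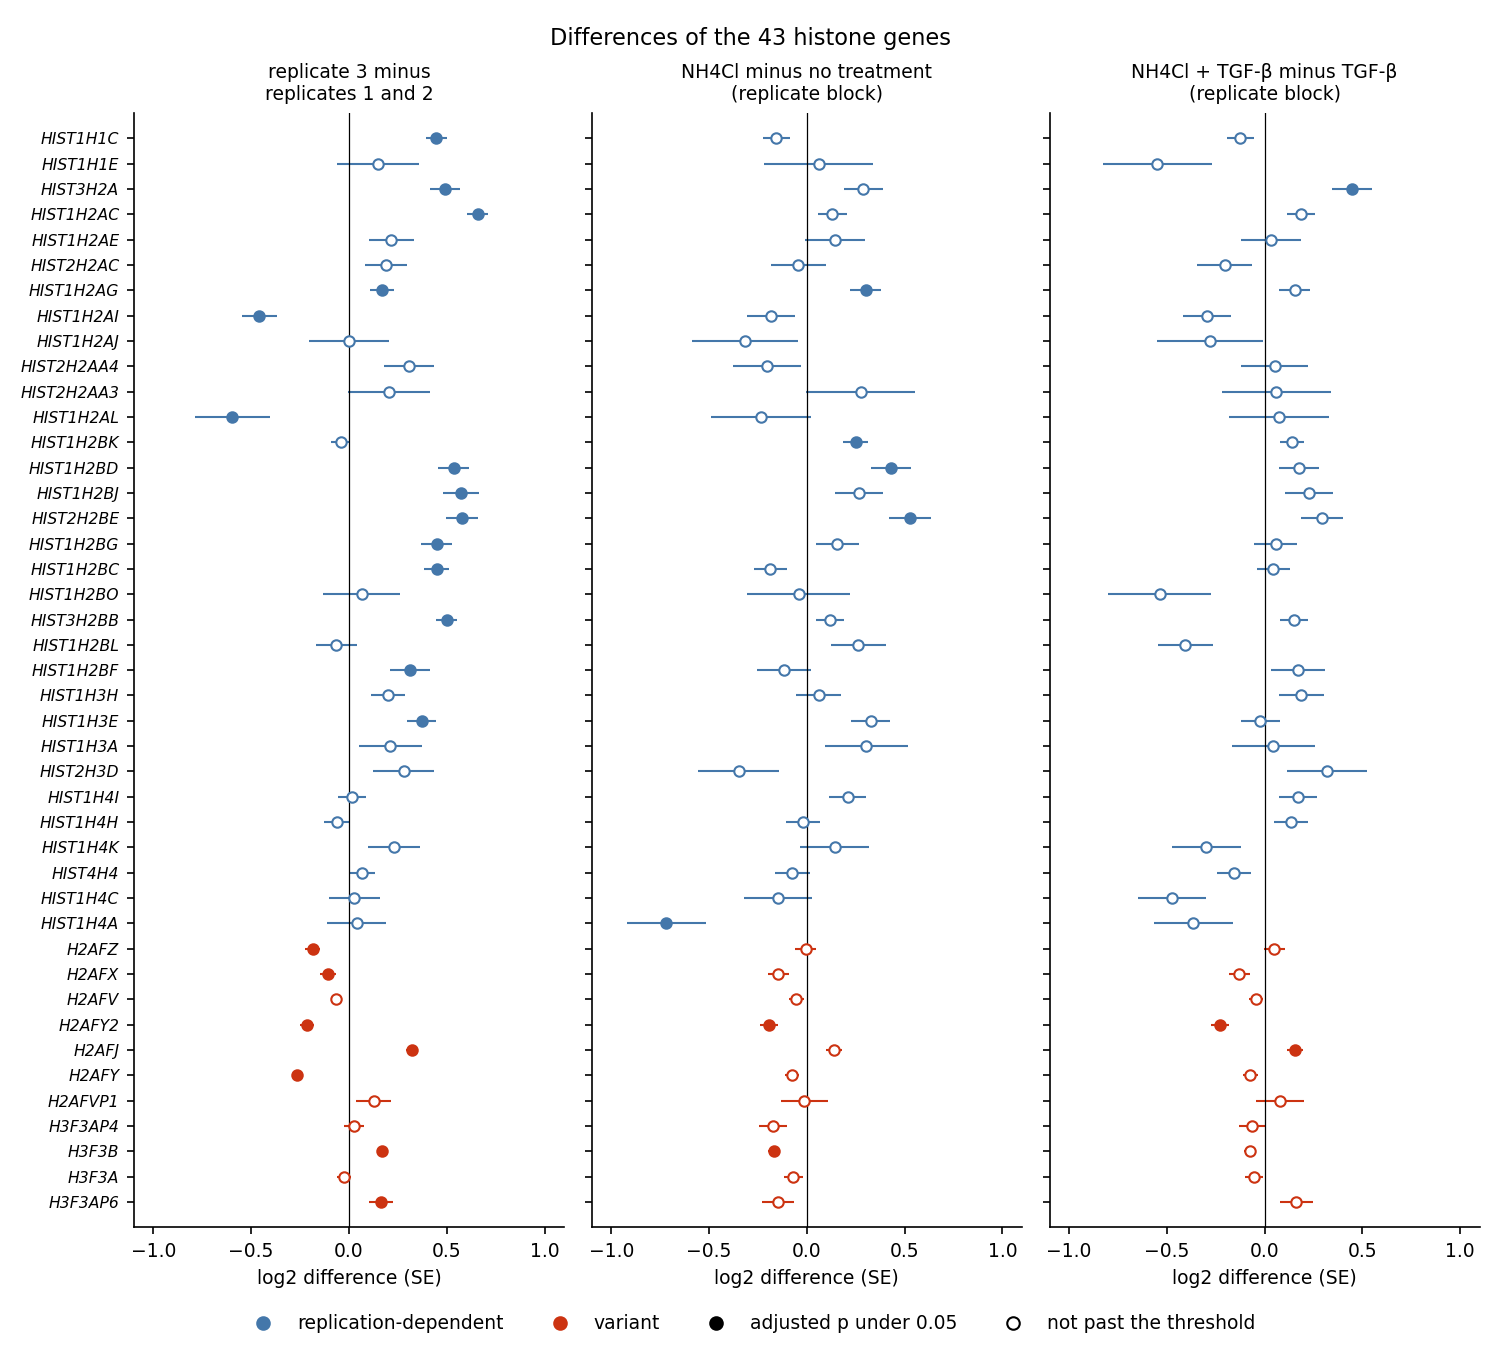
Log2 difference with its SE (horizontal axes) of each of the 43 histone genes (rows, ordered by class) between replicate 3 and replicates 1 and 2, and for NH4Cl without and with TGF-β under the replicate block. Filled points passed an adjusted p of 0.05: 21 members in the left panel, 7 in the middle and 3 in the right.

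The S phase list was lower with NH4Cl under the replicate block, in 8 of 25 genes without TGF-β (median -0.17) and in 14 of 25 with it (median -0.19), with 0 higher in each. Of all genes, 5.06% and 7.04% were called lower in the same comparisons. MCM7, the most abundant helicase gene of the list, was lower by -0.14 (adjusted p = 0.0264) and -0.15 (adjusted p = 0.016). Without the replicate block limma called 0 of the list in both comparisons, with 3 at an unadjusted p under 0.05 in each and 0 called by voom in each, and with the block voom called 15 and 17 as lower, against 7.85% and 10.7% of all genes. The count without TGF-β was 3 without C replicate 1, C replicate 2 or N replicate 2, 4 without C replicate 3 and 5 without T replicate 1 or NT replicate 2. The count with TGF-β was 6 without T replicate 2, 7 without NT replicate 2 or NT replicate 3 and 8 without NT replicate 1.

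Among the processing genes under the replicate block, SRRT and ZNF473, a protein of the U7 particle, were lower in both NH4Cl comparisons, 2 of 16 or 12.5% against 5.06% and 7.04% of all genes lower. SRRT was lower by -0.19 (adjusted p = 0.00824) without TGF-β and by -0.21 (adjusted p = 0.00438) with it. SLBP did not pass in either, at -0.05 (adjusted p = 0.601) and 0.03 (adjusted p = 0.717). The list count without TGF-β was 1 without C replicate 1, C replicate 2, T replicate 1, T replicate 2 or any N library. The count with TGF-β was 1 without T replicate 1, T replicate 2, NT replicate 1 or NT replicate 2. Without the block limma called 0 of the list in both comparisons, with 1 at an unadjusted p under 0.05 in each and 0 called by voom. With voom and the block, 3 were lower in each comparison (18.75% against 7.85% and 10.7% of all genes). In that fit 1 was higher with TGF-β.

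Of the chaperones under the replicate block, SSRP1 and DAXX, the latter a chaperone of H3.3, were lower in both comparisons. The differences were -0.14 for each without TGF-β, and -0.16 and -0.21 with it, where TONSL was lower too, so 10.5% and 15.8% of the 19 chaperones tested were lower against 5.06% and 7.04% of all genes. The count without TGF-β was 0 without C replicate 1, C replicate 2, N replicate 1 or N replicate 2. It was 1 without C replicate 3. TONSL lost its call without any library except N replicate 3 (adjusted p up to 0.173). Without the block limma called 0 of the chaperones in both comparisons, with 1 at an unadjusted p under 0.05 in each and 0 called by voom. With voom and the block, 2 were lower without TGF-β (10.5% against 7.85% of all genes). With TGF-β, voom and the block gave 5 lower (26.3% against 10.7% of all genes) and 1 higher. Of the 3 variants outside the naming rule, limma without the block called 0 with TGF-β present. There were 0 at an unadjusted p under 0.05, and 0 called by voom. With the replicate block, H1F0 and H1FX were each higher by 0.15 with TGF-β present (adjusted p = 0.0347 and 0.0488), where 8.79% of all genes were higher. H1FX lost this call without each of the 12 libraries (up to 0.161), and H1F0 without C replicate 2, any T library, N replicate 1, N replicate 2, NT replicate 1 or NT replicate 3 (up to 0.125).

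Marker genes moved with NH4Cl under the replicate block as well. VWF was higher by 0.46 ± 0.07 (adjusted p = 0.00544) without TGF-β and by 0.52 ± 0.07 (adjusted p = 0.00237) with it. With the block, VWF kept both calls whichever library was left out. Without the block neither limma nor voom called VWF in either comparison, and its unadjusted p in limma was not under 0.05. Of 6 epithelial markers under the block, VIL1 was higher by 0.18 without TGF-β (adjusted p = 0.0451). With TGF-β, EPCAM was higher by 0.19 (adjusted p = 0.0132) and CDH1 was at -0.19 (adjusted p = 0.0299). Of all genes, 6.21% were higher and 5.06% lower without TGF-β, and 8.79% and 7.04% with it. Without the block limma called 0 of the 6 in both comparisons, with 1 at an unadjusted p under 0.05 in each and 0 called by voom. With voom and the block, 1 epithelial marker was higher and 3 lower without TGF-β, and 2 were higher and 1 lower with it. In these fits 16.5% and 21.7% of all genes were called, 7.85% and 10.7% as lower. VIL1 lost its call without any library of C or NT, T replicate 1, N replicate 1 or N replicate 2 (up to 0.175), and CDH1 without T replicate 1, T replicate 3 or any NT library (up to 0.115). The part of these genes in the histone differences was not tested.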

How the data were processed

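RNA of 12 HCT116 libraries was sequenced in 4 groups of 3. The FPKM values are as deposited by the authors, who name Trimmomatic 0.36, STAR 2.5.2b, featureCounts of Subread 1.5.2 and DESeq2 with GRCh38 in the labels, while the paper names HTSeq for counting. RNA selection and strand are not stated. All 25733 genes were found in GENCODE release 29. Reads were recovered from FPKM and exon length, and 100% of values gave whole reads within 0.01.

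The main test was limma 3.58.1 in R 4.3.3 on log2(FPKM + 1), with an intensity trend, on 14357 genes with a mean of at least 0.5 FPKM, and p-values were adjusted over all of these by the Benjamini-Hochberg method. An adjusted p under 0.05 was called. The test was tested on simulated data. Same-numbered libraries had correlated residuals across groups (0.281 to 0.714), and the replicate number was also fitted as a block. Libraries of replicate 1 and replicate 2 were correlated with each other too (0.271 to 0.406), about as much as within replicate 1 (0.281 to 0.359) and replicate 2 (0.347 to 0.453), while replicate 3 was correlated negatively with both (-0.574 to -0.394). The correlations thus set replicate 3 apart and do not show that numbers 1 and 2 mark pairs. Sums, sequences and figures used Python 3.11.15, numpy 2.4.6, pandas 2.3.3 and matplotlib 3.10.9.

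The members and the gene lists were chosen with earlier results of these data known. Genes named were drawn from the coding variants and the 3 most abundant members of each replication-dependent class. They were also drawn from up to 5 rises and 5 falls per comparison past the threshold. From each list they were drawn from the 3 most abundant genes and up to 2 per direction past the threshold. Not every gene that met this rule is named. Other genes named were chosen after their values were seen. Alternatives were a pseudocount of 0.1, a minimum of 1 FPKM or none, TPM, median centring, the block, only the groups compared in the model, and leaving out each library. Added after seeing the data were limma-voom on recovered reads, replicates 1 and 2 alone, and leaving out each library, TPM, median centring and voom with the block. Where leaving out a library left 2 in its group, the spread was pooled over groups.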

Additional observations from a re-analysis of the deposited data

How the results depend on the processing

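For the counts of members called and the median log2 differences in the comparisons, 16 values under an alternative moved by more than 1.5 times the count or by more than 1 SD between replicates of the median, and 556 did not. Many of the 556 are counts of 0 that are 0 again, which says nothing of stability, and the sign of a median was less stable than these numbers. With the replicate block, calls went from 0 to 5 replication-dependent genes and 2 variants for NH4Cl against no treatment, to 1 and 2 for NH4Cl with TGF-β against TGF-β, and to 3 and 2 for NH4Cl with TGF-β against no treatment, and the block changed no other count of calls. In replicates 1 and 2 alone, an alternative chosen after seeing the data, the counts that moved were 1 replication-dependent gene in the NH4Cl comparison, 2 variants for NH4Cl with TGF-β against TGF-β and 1 variant for NH4Cl with TGF-β against no treatment. Between replicate 3 and the others, the replication-dependent median of 0.21 became 0.29 with a pseudocount of 0.1, 0.11 in TPM and 0.37 with voom, the latter chosen after seeing the data, and the variant median became -0.19 in TPM. Leaving out each library moved the replication-dependent median between -0.071 and 0.15 for NH4Cl with TGF-β against TGF-β, between -0.12 and 0.072 for NH4Cl with TGF-β against NH4Cl, and between -0.14 and 0.054 for the interaction. It also crossed 0 for NH4Cl against no treatment (-0.0070 to 0.20), NH4Cl with TGF-β against no treatment (-0.093 to 0.11) and TGF-β against no treatment (-0.076 to 0.089), as the variant median did for NH4Cl with TGF-β against NH4Cl (-0.012 to 0.049), TGF-β against no treatment (-0.035 to 0.038) and the interaction (-0.019 to 0.065). Between replicate 3 and the others it ran from 0.18 to 0.24 for the replication-dependent genes and from -0.055 to -0.0023 for the variants. The cause was not tested. For single members, 51 values fell short of the threshold and 17 passed it under an alternative, with the same direction. Outside the counts of members and their medians, 45 further values moved and 768 did not. Depth limits the replication-dependent genes more than the variants, since 12 of 32 had fewer than 20 reads in every library, against 0 of 11 variant rows. With 3 libraries per group, nothing here separates cultures from repeated sequencing.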
